A study of Mus musculus with 6 samples.

Results

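The genes described here are 9 complement components and regulators, C1qa, C1qb, C1qc, C4b, C3, Cfb, Cfp, Cd55 and Serping1, found by symbol among the 46095 gene symbols of one RNA-seq count table. The cells were of the BV2 line, mouse microglia that were made immortal. Cells of the CON group were untreated, and cells of the sTREM-1 group were incubated with recombinant sTREM-1 protein, the soluble form of a receptor of myeloid cells, at 1 μg/mL for 6 h. Each group had 3 libraries, and all 6 come from the same cell line, with no primary microglia or other cell type to set beside them. The comparison asks what sTREM-1 does to the RNA of microglia, and here what it does to their complement genes.

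Complement is a cascade of proteins that tag targets for removal by phagocytes. In the classical pathway, C1q binds a target and activates the proteases C1r and C1s, which cut C4 and C2, and the alternative pathway uses factor B and properdin. Both lead to cleavage of C3, whose fragments coat the target. Regulators hold the cascade back, such as C1 inhibitor in body fluids and CD55, CD46 and CD59 on the body's own cells. In the brain, microglia are a main source of C1q, and C1q and C3 are known for tagging synapses that microglia take up.

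Of the 9 genes, the 3 chains of C1q were called higher after sTREM-1, as were 16.5% of all tested genes. C3 and Cfp did not pass the test. The call of C1qa was lost when some single libraries were left out. C1qa, C1qb and C1qc were 1.60, 1.21 and 1.17 times as high in the sTREM-1 group as in the CON group. C3, the central component, was 1.02 times as high, and Cfp, the gene of properdin, was 1.04 times as high. C4b and Serping1 had at most 8 counts in any library, Cfb and Cd55 had 0 counts in all 6, and none of these 4 passed the filter on low counts. These folds come from edgeR's quasi-likelihood test, in which a gene was called at a Benjamini-Hochberg adjusted p under 0.05 over 14120 tested genes.

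The counts summed to between 40663981 and 40779439 in the CON libraries and to between 40070633 and 45877107 in the sTREM-1 libraries. Levels are given in CPM, counts relative to the library total after scaling the libraries by the TMM method, and a count of 0 allows up to 3 counts, or 0.0657 to 0.0756 CPM in these libraries. The coefficient of variation between these libraries beyond counting error (edgeR, common to all genes) was 3.99%. With so small a spread, small changes passed the test, and 30.5% of all tested genes were called. Of all tested genes, 16.5% were called higher and 14.1% lower. Of the microglia and macrophage markers, Csf1r, Cd68, Ptprc, Spi1 and Trem2 were at 116 to 605 CPM in the CON group. Cx3cr1, P2ry12 and Tmem119 were at 0.668 to 1.47 CPM in that group, and Aif1 was listed at 0. Of 10 such markers 9 were tested, and 4 were called higher, among them Csf1r at 1.45-fold. All 4 hepatocyte markers were at 0, no astrocyte, neuron or lymphocyte marker passed the filter, and the other markers tested, 2 of 3 for endothelium, 2 of 4 for oligodendrocytes, 1 of 4 for fibroblasts and 1 of 4 for neutrophils, were not called. Nothing in the labels says that the libraries came from separate days or passages, so p-values measure the spread between these libraries, which may be technical. In bulk RNA, a change in the number of cells of a kind and a change in RNA per cell cannot be told apart.

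The C1q genes lie next to each other on chromosome 4, all on the minus strand and with 3 exons each (GENCODE M21 annotation of GRCm38). C1qb spans chr4:136880129-136886187, C1qc chr4:136889804-136893065 and C1qa chr4:136895917-136898803. Each encodes 1 of the 3 chains from which the C1q protein is built. No stretch of 50 bases in their exons occurs in another annotated gene, so their reads are not shared with a near copy.

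RefSeq promoter sequences (GRCm38.p6) were matched for 5 of the 9 genes, C1qb, C1qc, C3, Cfp and Cd55. Bases before the start are printed for C1qb and C1qc, which were called higher together, and for C3, an abundant component that was not called. For C1qb and C3 these are the 250 bases before the RefSeq start. The GENCODE model of C1qc starts 151 bases before the RefSeq one, so only the 99 bases before both starts are printed. The stretches lie at chr4:136886201-136886450, chr4:136893066-136893164 and chr17:57228137-57228386, on the minus strand. Capitals mark matches, on either strand, to GGGA, any 4 bases and CC (a form of the NF-kB motif) or GAGGAA (the core bound by PU.1, the myeloid factor that Spi1 encodes).
C1qb: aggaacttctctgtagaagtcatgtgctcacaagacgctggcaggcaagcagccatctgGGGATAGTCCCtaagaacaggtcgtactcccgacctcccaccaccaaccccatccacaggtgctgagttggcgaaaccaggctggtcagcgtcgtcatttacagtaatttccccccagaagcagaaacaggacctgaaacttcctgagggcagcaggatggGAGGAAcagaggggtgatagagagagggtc
C1qc: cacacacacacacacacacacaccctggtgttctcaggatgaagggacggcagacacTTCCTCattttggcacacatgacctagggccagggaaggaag
C3: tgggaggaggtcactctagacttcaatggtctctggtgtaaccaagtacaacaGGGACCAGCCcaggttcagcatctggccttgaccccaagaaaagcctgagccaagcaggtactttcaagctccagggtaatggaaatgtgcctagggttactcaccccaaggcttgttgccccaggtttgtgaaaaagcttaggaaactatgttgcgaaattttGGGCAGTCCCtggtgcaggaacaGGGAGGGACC

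In the RefSeq promoters, with positions from the RefSeq start, C1qb and C1qc each hold both motifs. In C1qb, 2 overlapping NF-kB matches begin at -191 and -190 from the start and the PU.1 match at -30. In C1qc, the PU.1 match begins at -193 and the NF-kB match at -40, which lies in the first exon of the GENCODE model and is not among the bases printed. C3 holds 3 NF-kB matches, at -197, -33 and -10, and no PU.1 match, whereas Cfp holds 2 PU.1 matches, at +6 and +22, and no NF-kB match, and Cd55 holds 1 NF-kB match at -61. The other motifs searched on both strands were GAAA, any 2 bases and GAAA (the interferon response element) and TTC, any 3 bases and GAA (the site of STAT proteins), and neither had a match in these 5 promoters of 300 bases. Among all 32851 promoters of that length, 20.7% hold the NF-kB letters, 28.3% the PU.1 letters, 3.44% the interferon element and 8.30% the STAT site. The same letters thus occur in promoters of genes that were called and of genes that were not.

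C1qb was the most abundant C1q gene by count. It was at 77.8, 77.8 and 77.8 CPM in CON replicates 1, 2 and 3, and at 95.3, 92.1 and 94.99 CPM in sTREM-1 replicates 1, 2 and 3. Every sTREM-1 library was above every CON library, as was the case in one direction or the other for 40.7% of all tested genes. The means were 77.8 ± 0.0392 CPM in the CON group and 94.1 ± 1.73 CPM in the sTREM-1 group (SD, n = 3). The log2 fold change was 0.27 with an SE of 0.03 and a 95% interval from 0.21 to 0.34 (edgeR, adjusted p = 1.8e-07). The spread of the CON libraries, a coefficient of variation of 0.0503%, was below the 1.77% expected from counting error alone.

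C1qc moved by a like amount with a wider spread. Its levels were 38.2, 40.5 and 40.9 CPM in the CON libraries and 47.1, 50.2 and 43.2 CPM in the sTREM-1 libraries. The groups did not overlap, but sTREM-1 replicate 3 came close to the CON libraries. The means were 39.9 ± 1.46 and 46.8 ± 3.53 CPM (SD, n = 3), and the log2 fold change was 0.23 with an SE of 0.05 (interval 0.13 to 0.34, edgeR adjusted p = 0.000666). In the sTREM-1 group the coefficient of variation of C1qc was 7.55%, above the 2.24% expected from counting error.

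C1qa had far fewer counts than the other chains. Its counts were 50, 77 and 68 in CON replicates 1, 2 and 3, and 126, 103 and 98 in the sTREM-1 replicates, or 1.22, 1.88 and 1.67 CPM against 2.76, 2.42 and 2.47 CPM. All sTREM-1 libraries were above all CON libraries. The means were 1.59 ± 0.335 and 2.55 ± 0.184 CPM (SD, n = 3), with a log2 fold change of 0.68, an SE of 0.22 and an interval from 0.23 to 1.13 (edgeR adjusted p = 0.0182). The call rests on single libraries, since the adjusted p was 0.0901 without CON replicate 1 and 0.0773 without sTREM-1 replicate 1, with log2 fold changes of 0.52 and 0.62. The interval of C1qa takes in the log2 fold changes of C1qb and, at its lower end, C1qc.

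**Figure D1:**
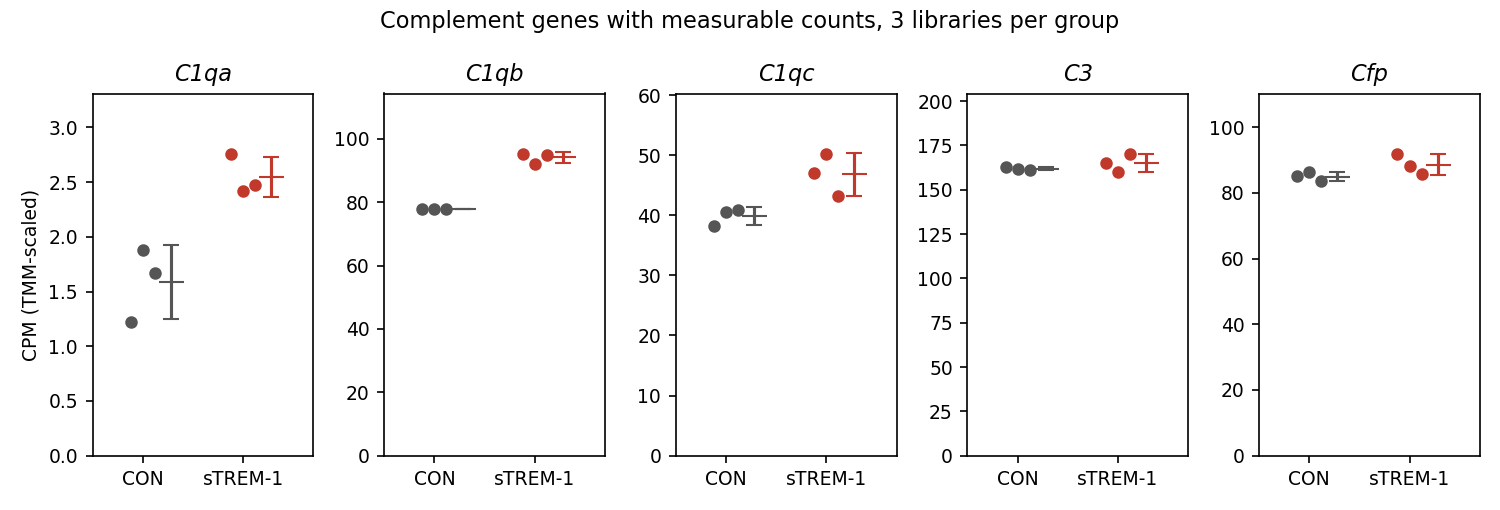
CPM per library (y axis, TMM-scaled, each panel from 0) of C1qa, C1qb, C1qc, C3 and Cfp in the CON group (grey) and the sTREM-1 group (red). Points are the 3 libraries of a group and the bars beside them the mean ± SD. The red points of the 3 C1q genes lie above all grey points, and those of C3 and Cfp overlap them. Among all tested genes, the groups did not overlap in one direction or the other for 40.7%.

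C3 had the most counts of the 9 genes. It lies at chr17:57203970-57228136 and its product is the protein on which all complement pathways meet. The levels were 163, 162 and 161 CPM in the CON libraries and 165, 160 and 170 CPM in the sTREM-1 libraries. The groups overlapped. The means were 162 ± 0.951 and 165 ± 5.0 CPM (SD, n = 3), and the log2 fold change of 0.03 had an interval from -0.03 to 0.09 (edgeR adjusted p = 0.511). A change in C3 of the size measured for C1qc lies outside this interval.

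Cfp encodes properdin, which stabilizes the convertase of the alternative pathway, and lies at chrX:20925454-20931555. The CON libraries were at 85.1, 86.3 and 83.5 CPM and the sTREM-1 libraries at 91.9, 88.3 and 85.6 CPM. The highest CON library was above the lowest sTREM-1 library. The means were 85.0 ± 1.44 and 88.6 ± 3.14 CPM (SD, n = 3), with a log2 fold change of 0.06 and an interval from -0.01 to 0.13 (edgeR adjusted p = 0.211). The test therefore gave 3 of the 5 tested genes higher and 0 lower, also 0 lower at an unadjusted p under 0.05 and with DESeq2, against 16.5% higher and 14.1% lower among all tested genes. The median log2 fold change of the 5 was 0.23, and that of all tested genes was -0.0017 with a median size of 0.127. As 4 of the 9 genes were not tested, these numbers describe the 5 genes with enough counts.

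Ratios of counts within a library do not depend on the scaling between libraries. The ratio of C1qb to C3 counts was 0.477, 0.482 and 0.482 in the CON libraries and 0.577, 0.575 and 0.558 in the sTREM-1 libraries. The ratio of C1qc to C3 counts was 0.234, 0.251 and 0.2535 in the CON libraries and 0.285, 0.313 and 0.2536 in the sTREM-1 libraries. The groups were well apart for C1qb and all but touched for C1qc, with sTREM-1 replicate 3 level with CON replicate 3. Both ratios had p = 0.1 in the two-sided exact permutation test, the smallest that 3 against 3 libraries allow (0.15 after adjustment over 6 ratios). The ratio of C1qb to C1qc was 1.95 ± 0.0732 in the CON group and 2.02 ± 0.183 in the sTREM-1 group, with overlapping groups (exact permutation p = 0.7, adjusted 0.7). The ratio of Cfp to C3 was 0.525 ± 0.00903 and 0.537 ± 0.0293 in the same groups (exact permutation p = 0.5, adjusted 0.6). C1qa was 0.0204 ± 0.00430 of C1qb in the CON group and 0.0271 ± 0.00164 in the sTREM-1 group (exact permutation p = 0.1, adjusted 0.15).

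Levels can be compared between genes only per length, here as CPM per kb of annotated exon in the CON group. C1qb came first with 71.5, followed by Cfp with 48.9, C3 with 31.5, C1qc with 20.7 and C1qa with 1.53. The CON libraries of neighbours in this order did not overlap, but with the longest transcript as the length C1qc came to 33.2, so that its place relative to C3 depends on the gene model. C1qb stood within the top 4.39% of tested genes by this level, Cfp within 7.23%, C3 within 12.5% and C1qc within 19.7%, whereas C1qa stood within the top 77.2%. Per length C1qb was 46.8 times as high as C1qa, although the chains are built into the protein together. What sets this gap was not tested.

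**Figure D2:**
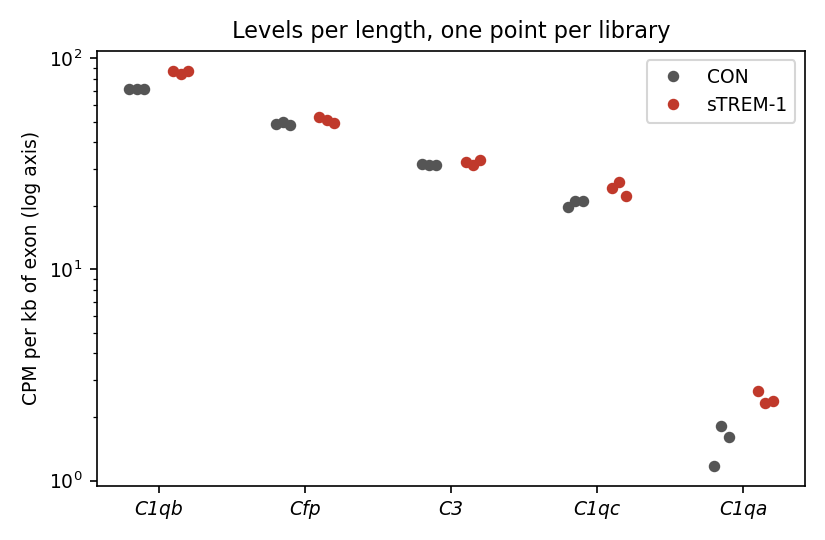
CPM per kb of exon (y axis, log scale) of the 5 tested genes, with 1 point per library, CON in grey and sTREM-1 in red. C1qb, Cfp, C3 and C1qc lie between 19.8 and 87.6, and all points of C1qa lie at 2.65 or below.

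C4b, the complement component cut by C1s, was counted 7, 8 and 0 times in CON replicates 1, 2 and 3, and 4, 0 and 1 times in the sTREM-1 replicates. Cfb, which encodes factor B, the protease of the alternative pathway, had 0 counts in all 6. Both lie in the major histocompatibility complex on chromosome 17, at chr17:34728380-34743882 and chr17:34856374-34862518, and the counts of this stretch call for caution. Within 500 kb of Cfb, 42 of 62 other protein-coding genes were listed at 0 in every library and 5 were tested, whereas 53.7% of all 20609 protein-coding genes were tested. The genes listed at 0 include Csnk2b, Clic1, Bag6, Prrc2a and Rnf5, which nearly all cells use, and the microglial gene Aif1. Neu1, a lysosomal sialidase in the same stretch, was at 8.84 ± 1.28 CPM in the CON group (SD, n = 3), so the stretch was not wholly empty. C4b and Cfb are therefore given as listed at or near 0, with no statement on their expression and no fold. The cause was not tested.

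Shared sequence may also affect these counts, which was not tested. Of the exon sequence of C4b, 34.6% of the 50-base stretches occur in another gene, C4a, and 73.0% of those of Cfb occur in Gm20547, a readthrough gene on the same strand. C4a had at most 2 counts in any library, and C2, the next gene of the classical pathway in this stretch, had 1 count in 1 library. When the filter on low counts was dropped, C4b had an adjusted p of 0.434 (edgeR). C3, although on the same chromosome, lies outside this stretch, and 19 of the 30 protein-coding genes within 500 kb of it were tested.

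**Figure D3:**
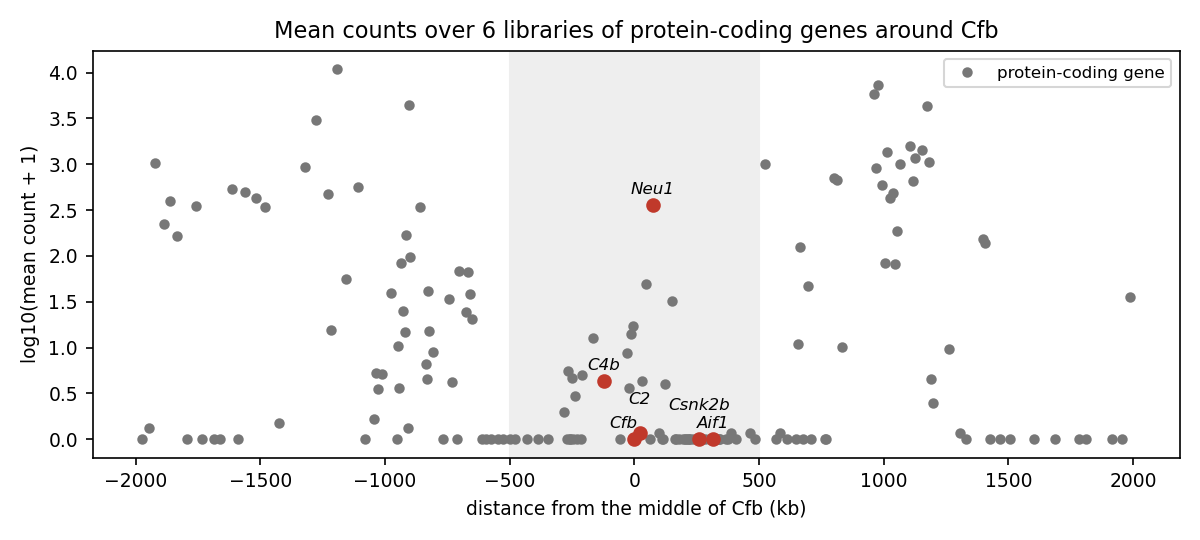
Mean count over the 6 libraries, as log10(mean count + 1), of 172 protein-coding genes against the distance from the middle of Cfb in kb. The grey band is the 500 kb on either side, in which 42 of the 62 genes besides Cfb lie at 0, and named genes are in red.

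Cd55 and Serping1, regulators of the cascade, were the remaining genes without a test. Cd55, whose product speeds the decay of C3 convertases on the cell surface, had 0 counts in all 6 libraries. This allows at most 0.0756 CPM in any of them, covers counting error only and holds only if reads of Cd55 were counted in full. Cd55 lies at chr1:130439027-130462744, and of 13 protein-coding genes within 500 kb of it 7 were at 0 and 3 were tested. The tested share was 23.1%, against 53.7% of all protein-coding genes. Among the tested neighbours were Pfkfb2 and Yod1, at 24.8 and 22.4 CPM in the CON group. Of the 50-base stretches of Cd55, 9.12% occur in other genes. Serping1, which encodes the C1 inhibitor, was counted 1, 1 and 4 times in CON replicates 1, 2 and 3, and 2, 0 and 4 times in the sTREM-1 replicates. It lies at chr2:84765387-84775444, where 14 of 23 protein-coding genes within 500 kb were tested. No difference in Serping1 was detectable at this depth, with an adjusted p of 0.994 when the filter was dropped (edgeR).

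Beyond these 9 genes, 47 further complement genes were taken from a list by role. Of these, 21 were tested, 13 were at 0 in all libraries, 4 were called higher and 3 lower. These numbers are near the 16.5% and 14.1% of all tested genes, and the median log2 fold change of the 21 was 0.01, so the list as a whole did not stand apart from the background. The calls fell in 2 of its roles, the membrane regulators and the receptors.

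The proteases that act with C1q were not called. C1ra was at 16.4 ± 1.02 CPM in the CON group and 17.8 ± 2.28 CPM in the sTREM-1 group, with a log2 fold change of 0.12 (edgeR adjusted p = 0.326). Of its 50-base stretches 50.8% occur in other genes, mainly C1rb, so its counts may be incomplete. C1s1 was counted 30, 21 and 18 times in CON replicates 1, 2 and 3, and 46, 45 and 28 times in the sTREM-1 replicates, a log2 fold change of 0.72 with an interval from -0.03 to 1.46 (edgeR adjusted p = 0.148). The lectin pathway genes Masp1, Masp2 and Fcna had log2 fold changes of -0.06, -0.28 and 0.05, and none was called. Shared sequence may also affect the counts of C1s1 and Masp2, which was not tested. Of the 50-base stretches of C1s1, 35.1% occur in C1s2 and Gm16567. Of those of Masp2, 52.5% occur in Tardbp, which overlaps it on the other strand. C8g, the one terminal pathway gene tested of 7, had 0.65, also not called.

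Among the regulators in body fluids, Clu, which encodes clusterin, was at 188 ± 3.76 CPM in the CON group and 190.0 ± 4.78 CPM in the sTREM-1 group (log2 fold change 0.01, edgeR adjusted p = 0.805). Cpn1, which encodes the catalytic chain of carboxypeptidase N, had a log2 fold change of -0.61 with overlapping groups. Neither was called. Per kb of exon, Clu was the most abundant of the complement regulators described, at 54.8 in the CON group, or 104 with the longest transcript as the length.

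All 3 tested membrane regulators, of 7 on the list, were called lower, against 14.1% of all tested genes. Cr1l encodes Crry, the rodent protein that limits C3 and C4 activation on the cell surface. It was at 55.7, 55.3 and 56.6 CPM in the CON libraries and at 48.8, 51.4 and 49.7 CPM in the sTREM-1 libraries, with no overlap. The log2 fold change was -0.16 with an SE of 0.04 (edgeR adjusted p = 0.00299), and the call was kept when each library was left out. The ratio of Cr1l to C3 counts was 0.345 ± 0.00498 in the CON group and 0.303 ± 0.0155 in the sTREM-1 group (SD, n = 3, exact permutation p = 0.1, adjusted 0.15).

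Cd59a, whose product blocks the membrane attack complex, was at 2.95, 3.51 and 3.45 CPM in the CON libraries and at 2.50, 2.56 and 1.79 CPM in the sTREM-1 libraries. Its log2 fold change was -0.53 with an SE of 0.19 (edgeR adjusted p = 0.0290). Cd46, a cofactor for the cleavage of C3b, was at 7.50, 8.97 and 8.94 CPM in the CON libraries and at 7.35, 6.92 and 6.33 CPM in the sTREM-1 libraries. Its log2 fold change was -0.30 with an SE of 0.11 (edgeR adjusted p = 0.0329). In both genes the groups did not overlap, though for Cd46 CON replicate 1 and sTREM-1 replicate 1 nearly met. Both calls were lost in some alternatives, while both genes stayed lower in every one, with log2 fold changes from -0.62 to -0.39 for Cd59a and from -0.38 to -0.25 for Cd46. The adjusted p of Cd59a was 0.0846 without CON replicate 2, 0.0833 without CON replicate 3 and 0.159 without sTREM-1 replicate 3. That of Cd46 was 0.110, 0.115 and 0.123 without the same libraries, 0.0594 without sTREM-1 replicate 2 and, with all 6 libraries, 0.0510 without the filter on low counts and 0.0626 with DESeq2. Of the 50-base stretches of Cd46, 13.5% occur in the antisense gene A330023F24Rik, and strand use in the counting is not given in the sources used here.

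Of the receptors and C1q-binding proteins, 10 of 12 were tested, and 4 were called higher, against 16.5% of all tested genes. C5ar1, the receptor of the fragment C5a that attracts phagocytes, was at 30.1, 26.8 and 26.9 CPM in the CON libraries and at 33.2, 33.3 and 33.6 CPM in the sTREM-1 libraries. The groups did not overlap, and the log2 fold change was 0.26 with an SE of 0.05 (edgeR adjusted p = 0.000526). Lrp1, an endocytic receptor that takes part in the uptake of C1q-tagged cells, rose from 1356 ± 34.4 to 1560 ± 37.4 CPM (log2 fold change 0.20, edgeR adjusted p = 8.2e-09). Calr, the gene of calreticulin, which binds C1q, rose from 858 ± 16.6 to 925 ± 15.2 CPM (log2 fold change 0.11, edgeR adjusted p = 0.000197). Itgb2, the beta chain shared by complement receptors 3 and 4, was at 90.6 ± 1.34 and 99.0 ± 4.99 CPM (SD, n = 3, log2 fold change 0.13, edgeR adjusted p = 0.00731). Its call was lost without sTREM-1 replicate 3, with an adjusted p of 0.0853.

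The other receptors were not called. C3ar1, the receptor of the fragment C3a, was at 356 ± 3.20 and 356 ± 5.28 CPM in the CON and sTREM-1 groups (SD, n = 3), with an interval of the log2 fold change from -0.05 to 0.05. C5ar2 had a log2 fold change of -0.03. Itgam and Itgax, the alpha chains of complement receptors 3 and 4, had 0.05 and -0.06, and the counts of Itgam carry the limit that 66.3% of its 50-base stretches occur in Gm49368. C1qbp had 0.04, and Cd93, once described as a C1q receptor, had -0.36 with an adjusted p of 0.0950 (edgeR). For Itgam and Cd93 the groups did not overlap, as for 40.7% of all tested genes, though neither was called.

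**Figure D4:**
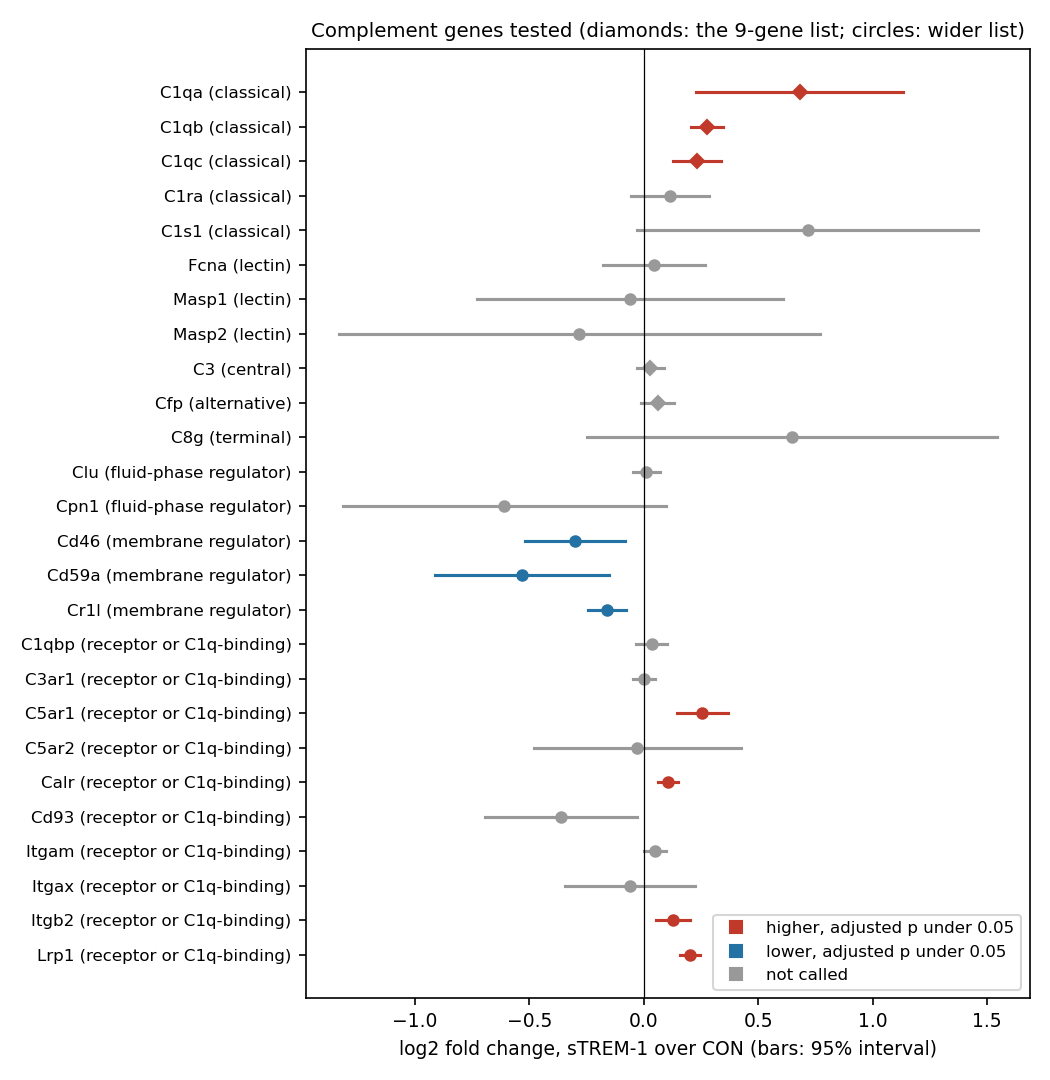
Log2 fold change of sTREM-1 over CON (x axis, with 95% intervals of edgeR's quasi-likelihood test) for the 5 tested genes of the 9 (diamonds) and the 21 tested of the wider list (circles), by role. Red marks genes called higher, blue lower and grey not called. The C1q genes lie right of 0 and the 3 membrane regulators left of it.

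**Figure D5:**
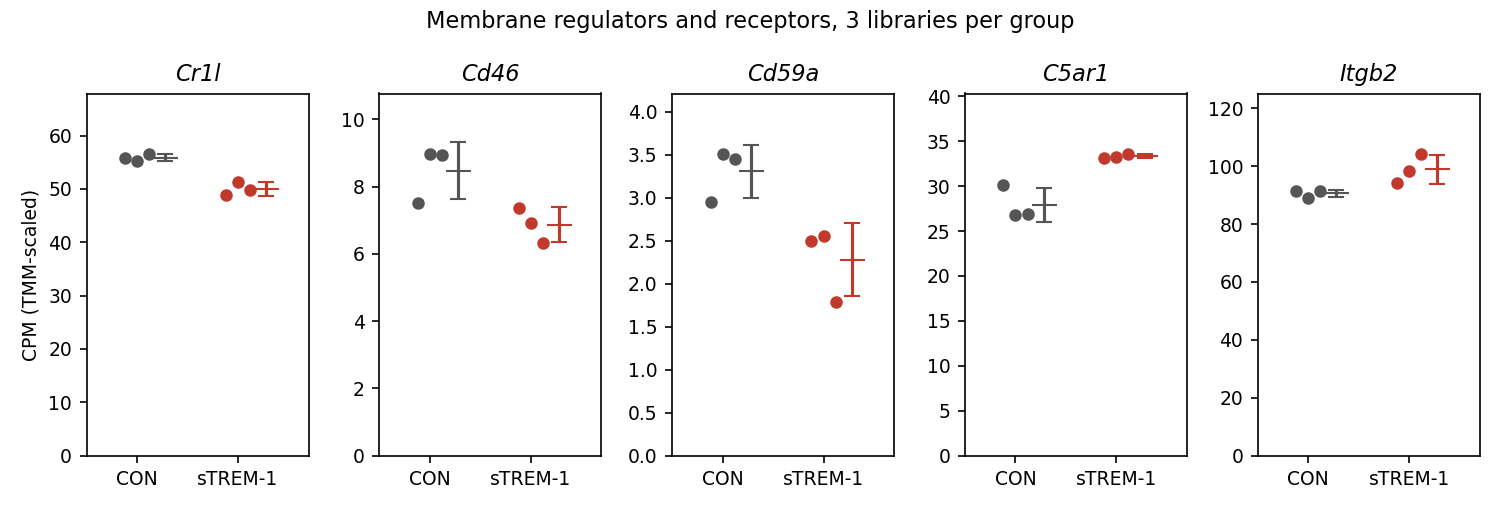
CPM per library (y axis, TMM-scaled, each panel from 0) of Cr1l, Cd46, Cd59a, C5ar1 and Itgb2, CON in grey and sTREM-1 in red, with mean ± SD beside the 3 libraries. All 5 genes shown were called. Their groups do not overlap, as is the case in one direction or the other for 40.7% of all tested genes. For Cd46 the lowest CON library, at 7.50, is next to the highest sTREM-1 library, at 7.35.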

How the data were processed

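The data were RNA-seq libraries of BV2 cells, 3 of the CON group and 3 of the sTREM-1 group, as the labels state, while the paper's methods give n = 4. Per the paper's methods, reads were quantified with RSEM. The submitters' processing notes list HISAT2 2.0.4 and name human builds, although the symbols are those of mouse genes, and the strand setting is not given in the sources used here. The values deposited by the authors are raw counts, whole numbers per gene symbol, and all 6 columns were used. Low genes were removed with edgeR's filterByExpr (minimum count 10), libraries were scaled by TMM, and groups were compared by quasi-likelihood testing without covariates (edgeR 4.0.16, R 4.3.3), at a Benjamini-Hochberg adjusted p under 0.05 over all tested genes.

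The 9 genes and the gene lists were chosen with earlier results of these data known. All 9 are described, the tested genes of the wider list are named whether called or not, and its other genes are counted. An item of the list as first written is not reported here. The genes around Cfb and Cd55 were chosen after their values were seen. Positions, exon lengths and shared 50-base stretches were read from GENCODE M21 (GRCm38; 12788 of 14120 tested genes had a length), and promoters from RefSeq. The procedure was tested on simulated data. Alternatives were RLE and upper-quartile factors, no filter, at least 10 counts in every library, DESeq2 1.42.0, a fold of at least 1.2, a replicate block, each library left out and, for levels, the longest transcript. Library totals were 40070633 counts or more, so counting error limits mainly genes with few counts.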

Additional observations from a re-analysis of the deposited data

How the results depend on the processing

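C1qb, C1qc, Cr1l, C5ar1, Calr and Lrp1 kept their call and direction in all 12 alternative fits at the same threshold, and C3 and Cfp were called in none of them. The log2 fold change ranged from 0.25 to 0.29 for C1qb, from 0.18 to 0.28 for C1qc and from 0.52 to 0.82 for C1qa. DESeq2 gave no adjusted p for C8g and Masp2, and these 2 values are not counted. Neither gene had at least 10 counts in every library, so the fit with that filter holds no value for them. Of the 308 other gene-by-fit values for the 26 tested genes, 281 kept direction and side of the threshold, and 12 lost the call, all in C1qa, Cd46, Cd59a and Itgb2. With at least a 1.2-fold change, 1517 genes were called in all, 2 of the 9 genes (C1qa and C1qb) were called higher, and of the wider list 0 were called higher and 2 lower. With each library left out, between 1 and 3 genes of the wider list were called lower. Labels number the libraries of each group, but same-numbered libraries did not deviate together (correlations -0.0038, -0.0002 and 0.0128), and with a replicate block 3 of the 9 genes were called higher and 0 lower, and 4613 genes in all.

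Only genes that were not called changed sign. C3ar1 came to -0.0021 with RLE factors, -0.0200 with upper-quartile factors, -0.0022 with at least 10 counts in every library and -0.0010 with DESeq2, and Clu to -0.0092 with upper-quartile factors. With each library left out, the log2 fold change ranged from -0.0128 to 0.0066 for C3ar1, from -0.218 to 0.182 for C5ar2, from -0.0078 to 0.0279 for Clu, from -0.0031 to 0.107 for Fcna, from -0.143 to 0.0239 for Itgax and from -0.667 to 0.291 for Masp2. Depth limits C1qa, with 50 to 126 counts per library, and the genes that were not tested.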
